A study of Homo sapiens with 24 samples.

Results

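OCI-Ly18 lymphoma cells kept in tazemetostat (TAZ) and co-cultured with CART19 cells were compared with the same cells kept in tazemetostat and co-cultured with UTD cells. The libraries were chosen by their labels alone, 6 of the 24 in the series and 3 per group, and every gene was examined. Of 58735 genes in the count table, 16467 had enough counts to be tested. OCI-Ly18 is an established human line of diffuse large B-cell lymphoma, and the cells used here expressed GFP. Cells of the TAZ CART19 group received tazemetostat, which inhibits the histone methyltransferase EZH2, at 500 nM for 72 h and then spent 48 h with CART19 cells in the continued presence of the drug. CART19 cells are T cells that carry a chimeric antigen receptor against a surface protein of B cells. Cells of the TAZ UTD group had the same drug for the same times and met UTD cells, a term that the labels do not spell out. Viable GFP-positive cells were sorted from both, so tumour cells that died before the sort were not sampled, and the effect of the drug by itself does not enter the comparison. Further groups were used only to place the result: OCI-Ly18 cells with DMSO in place of the drug and CART19 or UTD cells, and SU-DHL-4 cells, a second GFP-positive lymphoma line, with tazemetostat and CART19 or UTD cells. Each group was 1 cell line in 3 libraries, and the labels do not say whether the 3 came from separate cultures. The p-values therefore measure the spread between libraries, which may be technical.

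Activated T cells release interferon gamma, which binds its receptor on a target cell and activates the kinases JAK1 and JAK2 and through them transcription factors of the STAT family. STAT dimers bind GAS elements and induce, among others, the transcription factor IRF1, which with complexes of STAT proteins and IRF9 acts on ISRE elements of genes for antigen presentation, guanylate binding proteins and antiviral defence. EZH2 is the catalytic subunit of the PRC2 complex, which silences genes by methylating histone H3, and it is often mutated in germinal centre lymphomas.

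The 6 libraries held 15.6 to 20.1 M counts each. Markers of B cells summed to 3050 to 3258 CPM (counts per 1000000 scaled counts of a library) in the TAZ CART19 libraries and 2672 to 2753 CPM in the TAZ UTD libraries, in a list of 8 genes that were all detected. The defining B cell genes were thus present in every library. Markers of T cells, a list of 10 genes, summed to 14.3 to 19.5 CPM in TAZ CART19 libraries and 9.82 to 10.7 CPM in TAZ UTD libraries, and in both most of it came from CD247, with 852 against 466 counts over 3 libraries (0.81 ± 0.14 log2, adjusted p = 1.2e-04). The defining T cell genes CD3D, CD3E, CD3G and CD2 had 3, 5, 1 and 2 counts in all TAZ CART19 libraries together and 0 in TAZ UTD libraries. CD7, CD4 and CD28 had 0 in both, CD8A had 45 against 63 and CD5 had 8 against 8. T cell products summed to 3.23 to 5.12 CPM in TAZ CART19 libraries and 2.10 to 2.84 CPM in TAZ UTD libraries. Of these, GZMB had 19 counts against 0 and IFNG, the gene of interferon gamma itself, 72 against 0, at least 22.8-fold higher. GZMB had 0 counts in TAZ CART19 replicate 1. PRF1, with the most counts of the list, had 111 against 114. NKG7 had 28 against 10, GNLY 6 against 3 and GZMA 0 in both groups. TRAC, a T cell receptor constant chain gene, was lower with CART19 (-0.38 ± 0.11 log2 with SE, adjusted p = 0.017), a call lost without TAZ CART19 replicate 1 and without TAZ UTD replicates 2 and 3 (adjusted p 0.0064 to 0.12 over the alternatives). Of 4 NK cell markers KLRD1 and NCR1 had 0 counts, and the sum of 11.1 to 13.6 CPM against 18.4 to 22.2 CPM came almost wholly from NCAM1. Monocyte markers summed to 1.0 to 1.5 CPM in TAZ CART19 libraries and 0.37 to 1.08 CPM in TAZ UTD libraries, with LYZ, S100A8 and S100A9 at 0. Of the other monocyte markers CD14 had 18 counts against 17 over 3 libraries, ITGAM 3 against 12 and CSF1R 45 against 6. CSF1R was called higher (2.75 ± 0.90 log2, adjusted p = 0.037), a call lost in 11 of its 20 alternatives, among them each that left out a TAZ CART19 or TAZ UTD library (adjusted p up to 0.18). Whether these few transcripts have a part in the results below was not tested. In sorted bulk RNA, fewer cells that express a gene and less RNA per cell cannot be told apart.

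With CART19 cells, 1372 genes were higher and 832 lower than with UTD cells under tazemetostat, 13.4% of the genes tested (edgeR quasi-likelihood test, Benjamini-Hochberg adjusted p under 0.05). By direction these are 8.33% and 5.05%, and the median of all genes was -0.008 log2. These shares are the background for the counts of called list members below. The higher share of the calls, 62.3%, depended on the scaling: with upper quartile factors, which move the median of all genes by -0.041 log2, 1053 genes were higher and 1175 lower, so that 47.3% of the calls were higher. At least 1 log2 separated the groups for 249 genes that were higher and 109 that were lower (1.51% and 0.662%), at least 2 log2 for 115 and 29, at least 3 log2 for 62 and 4, and at least 4 log2 for 38 and 0. TAZ CART19 replicate 2 stood apart from replicates 1 and 3 of its group in its trend with GC content, 0.074 against -0.069 and -0.034. This trend is the slope of a gene's log2 CPM, less its mean over the 12 OCI-Ly18 libraries, per 10 percentage points of the gene's GC content, and it was 0.031, 0.054 and 0.132 in the TAZ UTD libraries. With GC and length trends removed 1445 genes were higher and 996 lower, and without TAZ CART19 replicate 2 the counts were 1725 and 1142.

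**Figure D1:**
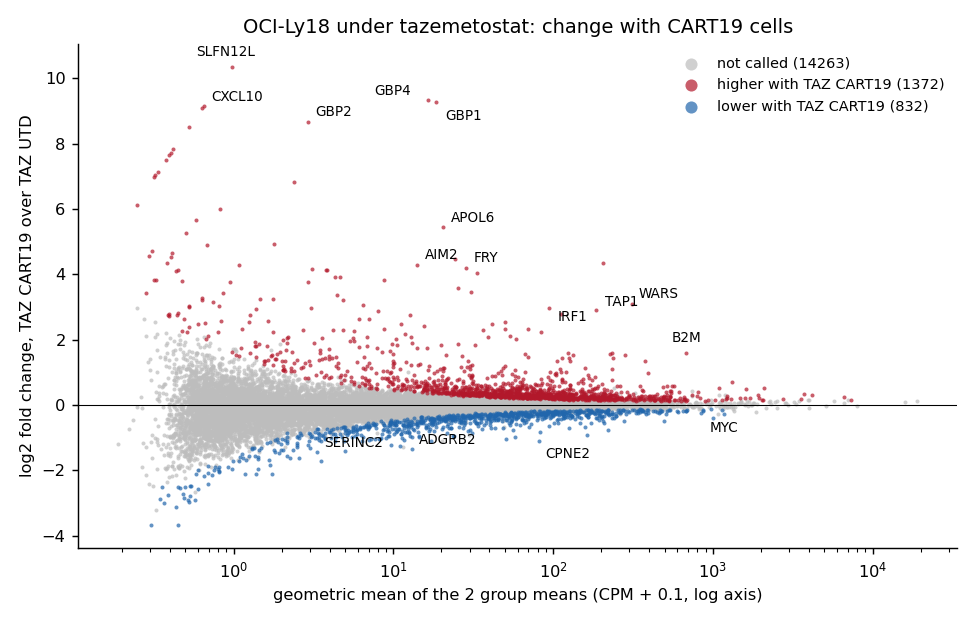
Log2 fold change, TAZ CART19 minus TAZ UTD (vertical axis), against the geometric mean of the 2 group means in CPM (horizontal log axis) for 16467 genes, each a point. Genes past the threshold (1372 higher, 832 lower) are coloured and some are named. Of the called changes of at least 3 log2, 62 are upward and 4 downward.

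Among called protein coding genes that reach 5 CPM and do not overlap between groups, the largest increases were mostly in genes of the interferon response. GBP4 (ENSG00000162654, chromosome 1 from 89181148 to 89198932 in hg38), a guanylate binding protein of cell-autonomous defence, had 408, 363 and 403 CPM in the TAZ CART19 libraries, against 0.680, 0.584 and 0.541 CPM in the TAZ UTD libraries. The groups did not overlap, as for 26.9% of all genes tested, and the difference was 9.34 ± 0.10 log2 (SE; adjusted p = 1.6e-35), about 646-fold. Its neighbour GBP1 had 428, 429.6 and 442 CPM with CART19 and 0.803, 0.760 and 0.541 CPM with UTD cells, 9.27 ± 0.11 log2. GBP2 had 40.8, 41.2 and 44.9 CPM against 0.247, 0.0584 and 0 CPM. All were under 1 CPM with UTD cells and far above it in every library with CART19 cells. SLFN12L, a Schlafen family gene, had no counts in any TAZ UTD library and 522 in the TAZ CART19 libraries, 10.1, 8.72 and 9.85 CPM, which is at least 165-fold higher when 3 counts are set for the UTD group as a whole.

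The 12 largest increases within these limits also held EPSTI1, IFI44L, LGALS3BP and XAF1, which respond to interferon, APOL6 of the apolipoprotein L family, the DNA sensor AIM2 and FRY, a large scaffold protein of cell shape and mitosis. FRY had 130, 112 and 122 CPM with CART19 and 7.29, 5.49 and 6.98 CPM with UTD cells, 4.20 ± 0.11 log2 (adjusted p = 3.4e-25). AIM2 had 67.6, 60.7 and 56.9 CPM against 2.47, 3.16 and 3.73 CPM, 4.29 ± 0.12 log2. Groups did not overlap for either gene.

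Of 16 tested genes for the interferon gamma receptor, JAK, STAT and SOCS proteins, 9 were higher and 1 lower, with a median of 0.44 log2 against -0.008 for all genes. SOCS1, the feedback inhibitor of the JAK kinases, had 107, 126 and 113 CPM with CART19 and 41.1, 40.7 and 43.0 CPM with UTD cells, 1.47 ± 0.078 log2 (adjusted p = 3.2e-16). PTPN6, a phosphatase that damps receptor signalling, was higher by 1.65 ± 0.22 log2 and STAT2 by 1.02 ± 0.059. Among 11 interferon regulatory factors and BATF genes 7 were higher and 1 lower, median 0.88 log2. IRF1 had 266, 263 and 253 CPM in TAZ CART19 libraries, against 31.9, 32.8 and 36.3 CPM in TAZ UTD libraries, 2.95 ± 0.065 log2 (adjusted p = 5.2e-27), and the groups stood well apart. IRF9, the DNA-binding partner of STAT2 complexes, was higher by 2.28 ± 0.22 log2, BATF3 by 1.89 ± 0.25 and IRF7 by 1.03 ± 0.12. The 1 that was lower was IRF2BP1, a corepressor that binds IRF2, with 43.4, 52.2 and 45.3 CPM against 62.6, 66.4 and 65.7 CPM, -0.47 ± 0.079 log2 (adjusted p = 5.0e-05), named after its value was seen. IRF4, which is in the list of germinal centre and plasma cell regulators, was lower too, with 161, 163 and 169.5 CPM against 224, 221 and 204 CPM, -0.40 ± 0.057 log2 (adjusted p = 3.9e-06).

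Families of interferon effectors changed nearly as wholes. All 8 tested PARP genes and partners were higher (median 0.97 log2), led by PARP14 at 4.04 ± 0.092 log2, PARP9 at 3.47 ± 0.10 and DTX3L, the ubiquitin ligase that pairs with PARP9, at 2.32 ± 0.071. All 4 tested APOL genes were higher (median 3.86 log2). Of 8 tested guanylate binding proteins and related GTPases 6 were higher (median 5.19 log2), and of 10 nucleic acid sensors 8 (median 0.84 log2), among them TLR7, a receptor for single-stranded RNA, at 2.25 ± 0.20 log2 and IFIH1, a sensor of double-stranded RNA, at 1.33 ± 0.15. In the antiviral list 36 of 37 tested genes were higher and 0 lower, with a median of 2.09 log2. OAS2, which makes the activator of RNase L, had 122, 117 and 123 CPM with CART19 and 22.7, 18.7 and 21.4 CPM with UTD cells, 2.52 ± 0.082 log2 (adjusted p = 4.1e-22). No library of either group lay near the other group. Among 18 other genes known to respond to interferon gamma 15 were higher (median 0.90 log2). WARS, the tryptophan transfer RNA synthetase, had 923, 898 and 907 CPM against 110.4, 106 and 102 CPM, 3.10 ± 0.050 log2. ETV7, a repressor of the ETS family, had 230 counts in TAZ CART19 libraries and 3 in TAZ UTD libraries, a ratio of 72.8 (95% counting interval 24.6 to 356). Without TAZ CART19 replicate 2 the counts of higher genes were 35 antiviral, 8 PARP, 4 APOL, 6 GTPase and 8 sensor genes. The lowest counts in any alternative fit were 33 antiviral, 6 PARP, 4 APOL, 5 GTPase and 7 sensor genes. The GTPase median was 3.235 log2 at its lowest.

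Promoter letters were examined for the motifs that the factors of this pathway are known to bind. GAS was searched as TTCNNNGAA and ISRE as GAAANNGAAA on both strands, in RefSeq windows (GRCh38.p14) from 250 bases before to 50 bases after a start site, and the motifs may overlap each other. Of 39 windows of the 33 genes at least 3 log2 higher that the table holds, 56.4% held an ISRE and 23.1% a GAS. Of 252 windows of genes at least 1 log2 higher, 26.2% and 12.3% did so. All 1566 windows of genes called higher gave 7.60% and 7.34%, and the 950 windows of genes called lower gave 2.95% and 5.37%. The background was 3.06% and 6.29% of 15387 windows of tested genes, and 3.57% and 7.66% of all 35116 windows. A match is a string of letters and not a measured site. Shown here are the gene of the factor IRF1, the transporter gene TAP1 and 2 of the largest increases, each read on the strand of its gene, with GAS or ISRE letters in capitals. IRF1 (chr5:132490724-132491023, minus strand) has 1 GAS. TAP1 (chr6:32853655-32853954, minus strand, 1 of its 2 windows, picked by its number of matches) has 2 ISRE that overlap. The other TAP1 window has a GAS and no ISRE. GBP1 (chr1:89065159-89065458, minus strand) has 1 ISRE. SLFN12L (chr17:35537629-35537928, minus strand) has 2 GAS, the first overlapping an ISRE.
IRF1: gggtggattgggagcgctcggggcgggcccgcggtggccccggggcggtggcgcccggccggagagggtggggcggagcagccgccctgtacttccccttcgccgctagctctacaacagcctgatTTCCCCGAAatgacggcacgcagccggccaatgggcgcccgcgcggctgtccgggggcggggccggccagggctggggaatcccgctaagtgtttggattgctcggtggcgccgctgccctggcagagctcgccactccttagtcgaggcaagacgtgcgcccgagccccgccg
TAP1: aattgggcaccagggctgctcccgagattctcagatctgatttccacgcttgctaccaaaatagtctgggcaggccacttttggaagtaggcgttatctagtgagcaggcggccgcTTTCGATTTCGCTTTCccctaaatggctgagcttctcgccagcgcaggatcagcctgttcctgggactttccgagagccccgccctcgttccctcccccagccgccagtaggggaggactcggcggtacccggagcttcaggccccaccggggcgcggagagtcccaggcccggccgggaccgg
GBP1: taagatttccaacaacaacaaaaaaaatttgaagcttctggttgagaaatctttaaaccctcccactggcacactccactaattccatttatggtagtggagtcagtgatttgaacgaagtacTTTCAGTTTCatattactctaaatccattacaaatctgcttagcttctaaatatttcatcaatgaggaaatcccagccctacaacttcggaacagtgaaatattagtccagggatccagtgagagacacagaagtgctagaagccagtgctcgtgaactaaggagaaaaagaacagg
SLFN12L: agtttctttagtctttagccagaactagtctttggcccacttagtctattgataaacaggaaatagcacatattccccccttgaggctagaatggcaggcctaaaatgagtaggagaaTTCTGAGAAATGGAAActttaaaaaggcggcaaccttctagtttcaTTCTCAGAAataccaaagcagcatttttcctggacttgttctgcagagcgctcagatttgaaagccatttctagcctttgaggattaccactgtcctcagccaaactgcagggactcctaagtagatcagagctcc
FRY and XAF1, also among the largest increases, have windows with neither motif.

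RNA of the tested genes for antigen presentation by MHC class I was higher throughout. All 12 tested genes of class I chains and loading were called higher, with a median of 1.40 log2, and so were all 10 of the immunoproteasome, TAP and peptide trimming, with a median of 1.34 log2. Both counts were the same in every alternative run. TAP1, which carries peptides into the endoplasmic reticulum, had 512, 515 and 498 CPM in TAZ CART19 libraries, against 64.0, 67.4 and 71.3 CPM in TAZ UTD libraries, 2.91 ± 0.053 log2 (adjusted p = 2.0e-29). PSMB9, a catalytic subunit of the immunoproteasome, had 183, 197 and 164 CPM against 36.8, 40.3 and 39.0 CPM, 2.23 ± 0.070 log2. The groups did not overlap for any of the 22 genes. B2M, the invariant light chain, had 1218, 1185 and 1170 CPM with CART19 and 397, 394 and 388 CPM with UTD cells, 1.60 ± 0.043 log2 (adjusted p = 1.3e-24). HLA-B was higher by 1.36 ± 0.058 log2, HLA-C by 1.53 ± 0.12, HLA-E by 1.55 ± 0.055 and HLA-F by 2.47 ± 0.17. NLRC5, the transactivator of class I genes, had 456, 482 and 483 CPM with CART19 and 162, 163 and 172 CPM with UTD cells, 1.51 ± 0.048 log2 (adjusted p = 2.1e-22). HLA genes are close copies of each other, and how the authors' counting shared reads among them is not given in the sources used here.

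Of 19 tested MHC class II genes 15 were higher and 0 lower, with a median of 0.70 log2. CIITA, their master regulator, had 316, 326 and 325 CPM in TAZ CART19 libraries, against 214, 216 and 217 CPM in TAZ UTD libraries, 0.58 ± 0.050 log2 (adjusted p = 7.1e-11). HLA-DPA1 had 528, 576 and 557 CPM against 268, 286 and 287 CPM, 0.98 ± 0.047 log2. The groups did not overlap for either gene. HLA-DQA1 was higher by 1.14 ± 0.054 log2, and HLA-DOA and HLA-DOB, chains of the DO molecule that tunes peptide loading, by 0.92 ± 0.055 and 1.46 ± 0.19.

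**Figure D2:**
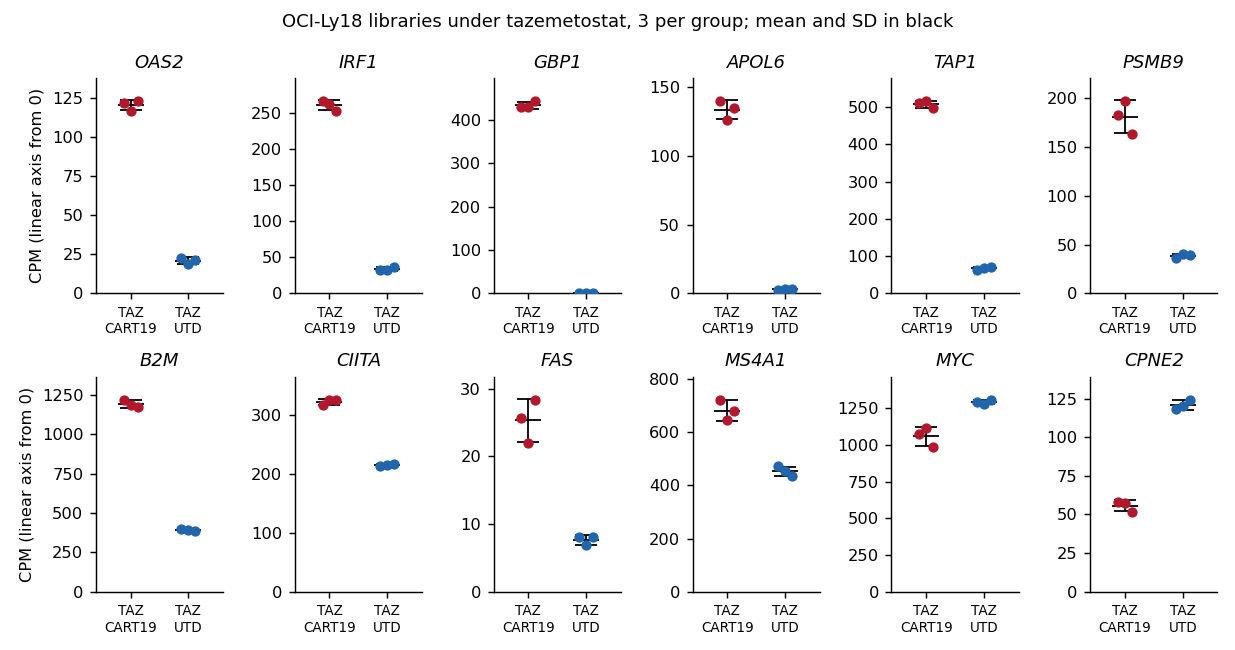
CPM per library (vertical axes, linear from 0) for 12 genes named in the text, TAZ CART19 libraries left of TAZ UTD libraries, with the mean and SD of each group in black. In the IRF1 panel the CART19 libraries sit at 266, 263 and 253 CPM and the UTD libraries at 31.9, 32.8 and 36.3 CPM.

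CXCL9 and CXCL10, ligands of the chemokine receptor CXCR3 of activated T cells, had 216 and 228 counts in the 3 TAZ CART19 libraries and 0 in the TAZ UTD libraries, at least 68.4-fold and 72.2-fold higher. They and CCL22 were the 3 of 7 tested chemokines that were called. CCL22 rests on 50 counts against 2, a ratio of 23.7 (95% counting interval 6.24 to 201), and its call was lost without TAZ UTD replicate 2 or 3 (adjusted p 0.0034 to 0.061 over the alternatives). Of 8 checkpoint ligands and inhibitory receptors 5 were higher (median 0.83 log2). TNFRSF14, the ligand of the inhibitory receptor BTLA, had 15.1, 21.4 and 15.8 CPM with CART19 and 0.927, 1.46 and 1.03 CPM with UTD cells, 3.93 ± 0.30 log2 (adjusted p = 4.1e-10). LGALS9, which binds TIM-3, was higher by 2.17 ± 0.15 log2, CEACAM1 by 1.40 ± 0.25 and CD47, the signal that inhibits phagocytosis, by 0.42 ± 0.059. CD274, which encodes the checkpoint ligand PD-L1, was low in both groups, 2.81, 2.56 and 2.19 CPM against 1.36, 1.11 and 0.758 CPM. Its libraries did not overlap and it was called higher by 1.23 ± 0.37 log2 (adjusted p = 0.021), but not in the fit of all 24 libraries or without TAZ CART19 replicate 1, TAZ UTD replicate 2 or TAZ UTD replicate 3 (adjusted p 0.013 to 0.12 over the alternatives).

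Among 12 costimulatory and SLAM receptors and ligands 6 were higher (median 0.70 log2), with TNFSF4, the OX40 ligand, at 1.19 ± 0.14 log2 and CD40 at 1.03 ± 0.17. Of 9 adhesion molecules of the immune synapse 4 were higher (median 0.15 log2), where 8.33% of all genes were called higher. ICAM1, the ligand of the T cell integrin LFA-1, had 19.7, 16.8 and 21.5 CPM in TAZ CART19 libraries, against 3.65, 3.45 and 4.38 CPM in TAZ UTD libraries, 2.33 ± 0.16 log2 (adjusted p = 3.8e-13). CD58, the ligand of CD2, had 5.71, 5.41 and 6.51 CPM against 7.04, 6.95 and 5.09 CPM, and was not called (-0.11 ± 0.21 log2, adjusted p = 0.8). Its 2 groups overlapped, unlike those of ICAM1.

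Of 18 tested genes of death receptors and their proximal signalling 9 were higher and 1 lower, with a median of 0.30 log2. Among all genes tested 8.33% were called higher and 5.05% lower. FAS, the receptor of Fas ligand, had 25.6, 21.9 and 28.3 CPM in TAZ CART19 libraries, against 8.03, 6.84 and 8.01 CPM in TAZ UTD libraries, 1.73 ± 0.13 log2 (adjusted p = 6.6e-12). TNFSF10, which encodes TRAIL, was higher by 1.18 ± 0.25 log2, the inhibitor of apoptosis BIRC3 by 1.17 ± 0.091 and the deubiquitinase CYLD by 1.13 ± 0.081. The BCL2 family had members of both kinds among 8 higher and 1 lower of 19 (median 0.035 log2, and -0.006 to 0.16 over the alternatives). The survival factor MCL1 had 286, 319 and 310.2 CPM with CART19 and 178, 184 and 175 CPM with UTD cells, 0.77 ± 0.050 log2 (adjusted p = 1.1e-13), and BMF, a BH3-only killer, had 73.9, 82.6 and 70.9 CPM against 33.5, 34.0 and 32.1 CPM, 1.19 ± 0.086 log2. The effector BAK1 was higher by 0.62 ± 0.10 log2. The lower count was 3 without TAZ CART19 replicate 2 and 2 without TAZ CART19 replicate 1 or TAZ UTD replicate 1.

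Of 15 tested granzyme inhibitors, gasdermins and caspases 3 were higher and 0 lower (median 0.11 log2), where 8.33% of all genes were called higher, and both counts were the same in every alternative. Among them was GSDMD, a pore-forming gasdermin, at 0.76 ± 0.094 log2. SERPINB9, the inhibitor of granzyme B, had 54.7, 45.7 and 45.0 CPM with CART19 and 45.4, 44.6 and 42.3 CPM with UTD cells, and was not called (0.14 ± 0.086 log2, adjusted p = 0.34). In the NF-kB list 6 of 22 were higher (median 0.21 log2), with BCL3, a nuclear cofactor of NF-kB, at 1.91 ± 0.13 log2 and the feedback inhibitor TNFAIP3 at 0.99 ± 0.16. TNF had 63 counts in TAZ CART19 libraries and 3 in TAZ UTD libraries, a ratio of 19.9 (95% counting interval 6.52 to 99.3). Of 20 AP-1, EGR and immediate early genes 4 were higher and 3 lower (median -0.027 log2, and -0.11 to 0.022 over the alternatives). Among all genes tested 5.05% were called lower. Without TAZ UTD replicate 1 the higher count was 2, and without TAZ UTD replicate 3 the lower count was 1. ATF3 and KLF2 were among the higher ones at 1.5 ± 0.26 and 1.25 ± 0.15 log2. CEBPD was lower (-0.73 ± 0.21 log2, adjusted p = 0.018). Its difference was -0.47 with GC and length trends removed, and it was not called there, in the fits of 6 or of 24 libraries, or without TAZ CART19 replicate 1 or 3 or TAZ UTD replicate 3 (adjusted p 0.0035 to 0.22 over the alternatives).

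B cell surface genes moved in both directions. Of 23 tested genes of the B cell receptor and surface identity 9 were higher and 5 lower, with a median of 0.13 log2. The shares over all genes were 8.33% and 5.05%. The lower count was 3 without TAZ CART19 replicate 1 or TAZ UTD replicate 2 or 3, and 2 without TAZ CART19 replicate 3. MS4A1, which encodes CD20, had 721, 645 and 678 CPM with CART19 and 471, 452 and 436 CPM with UTD cells, 0.59 ± 0.048 log2 (adjusted p = 1.9e-11). CD37, a tetraspanin of mature B cells, had 235, 253 and 218 CPM against 158, 151 and 159 CPM, 0.59 ± 0.054 log2. Each of these surface antigens was higher in all 3 CART19 libraries than in any UTD library. BANK1, an adaptor of the B cell receptor, was higher by 1.75 ± 0.17 log2 and the inhibitory Fc receptor FCGR2B by 1.11 ± 0.18. The 5 that were lower were CD24 (-0.36 log2), BLK (-0.31), VPREB3 (-0.24), EBF1 (-0.18) and TCL1A (-0.17). CD22 (-0.038) and CD79B (0.059) were not called.

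Regulators of germinal centre and plasma cell fate were also split, with 7 higher and 6 lower of 26 (median -0.11 log2). The shares over all genes were 8.33% and 5.05%. SPIB and MEF2C, transcription factors of B cells, were higher by 0.45 ± 0.057 and 0.65 ± 0.10 log2, and IL21R by 1.41 ± 0.25. SDC1, the plasma cell surface proteoglycan CD138, had 5.71, 5.41 and 5.93 CPM with CART19 and 9.89, 11.9 and 13.5 CPM with UTD cells, -1.05 ± 0.17 log2 (adjusted p = 2.7e-05). STMN1, a tubulin-binding protein of dividing cells, had 396, 447 and 418 CPM against 594, 577 and 585 CPM, -0.48 ± 0.047 log2. Both were lower in every CART19 library than in any UTD library. BCL6, the repressor that defines germinal centre B cells, had 228, 221 and 207 CPM in TAZ CART19 libraries and 235, 232 and 234 CPM in TAZ UTD libraries and was not called (-0.10 ± 0.050 log2, adjusted p = 0.24). PRDM1, which drives plasma cell fate, was low, 2.46, 1.92 and 2.30 CPM against 2.84, 3.74 and 2.38 CPM, and was not called either (-0.42 ± 0.31 log2, adjusted p = 0.43).

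Cell cycle genes were lower where they changed. Of 42 tested G1/S and replication genes 7 were lower and 0 higher, with a median of -0.084 log2. Of 39 G2/M genes 11 were lower and 0 higher, with a median of -0.12 log2. Among all genes tested 5.05% were called lower and 8.33% higher. E2F2, an activator of S phase genes, had 119, 132 and 118 CPM in TAZ CART19 libraries, against 174, 177 and 184 CPM in TAZ UTD libraries, -0.54 ± 0.054 log2 (adjusted p = 3.3e-09). POLE, the catalytic subunit of a replicative polymerase, was also lower (-0.30 ± 0.047 log2), and so was ORC6 of the origin recognition complex (-0.30 ± 0.066). FOXM1, a transcription factor of mitotic genes, differed by -0.35 ± 0.073 log2, CENPF of the kinetochore by -0.29 ± 0.049 and the mitotic kinesin KIF20A by -0.29 ± 0.067. The medians stayed below 0 in every alternative. The lower counts ranged from 4 to 13 for G1/S, with 4 without TAZ CART19 replicate 1, and from 8 to 21 for G2/M, where 1 gene was called higher without TAZ CART19 replicate 2. Both counts were highest, 13 and 21, with GC and length trends removed. MYC had 1070, 1117 and 986 CPM with CART19 and 1290, 1276 and 1306 CPM with UTD cells, -0.29 ± 0.044 log2 (adjusted p = 1.1e-05), and all 3 CART19 libraries lay below the UTD libraries. Among 35 genes of MYC and ribosome biogenesis 4 were higher, near the share of 8.33% over all genes, and MYC was the 1 that was lower. With GC and length trends removed 8 were higher and 2 lower, and 2 were lower with upper quartile factors or without TAZ CART19 replicate 3. Of 31 CDK inhibitors and p53 targets 7 were higher and 1 lower, and 7 and 4 without TAZ CART19 replicate 2. BTG2, a p53 target that slows growth, and the sestrin SESN3 were higher by 0.49 ± 0.054 and 0.48 ± 0.067 log2. CDKN1A, the p21 inhibitor, had 42.0, 52.8 and 45.2 CPM against 42.6, 45.9 and 50.4 CPM, with overlapping groups, and was not called (0.008 ± 0.091 log2, adjusted p = 0.97).

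Of 31 genes of cholesterol and fatty acid synthesis 11 were higher and 0 lower (median 0.11 log2). HMGCS1, which makes HMG-CoA for the mevalonate pathway, had 206, 198 and 212 CPM in TAZ CART19 libraries, against 156, 158 and 141 CPM in TAZ UTD libraries, 0.44 ± 0.057 log2 (adjusted p = 6.4e-07). STARD4, a sterol carrier, was higher by 0.34 ± 0.081 log2. In the integrated stress and unfolded protein response list 11 were higher and 4 lower of 32 (median 0.17 log2), and without TAZ UTD replicate 1 the higher count was 7. The chaperone HSP90B1 had 648, 603 and 656 CPM with CART19 and 479, 474 and 451 CPM with UTD cells, 0.44 ± 0.046 log2. VLDLR, a lipoprotein receptor induced by ATF4, went the other way, 129, 118 and 132 CPM against 207, 202 and 192 CPM, -0.67 ± 0.056 log2 (adjusted p = 5.5e-11). Of 22 heat shock and oxidative stress genes 8 were higher and 1 lower (median 0.18 log2; the lower count was 0 without TAZ CART19 replicate 1 or 3 or any 1 of the TAZ UTD replicates), with HSPA8 at 0.31 ± 0.039 log2 and the metallothionein MT2A at 1.10 ± 0.12. Ribosomal protein genes gave 5 higher of 49 (median 0.048 log2) and mitochondrially encoded mRNAs 2 of 13 (median 0.14 log2), where 8.33% of all genes were called higher, so that the ribosomal share is near that of all genes. Single libraries decided both counts. The ribosomal count was 1, 3 and 14 without TAZ CART19 replicates 1, 2 and 3 in turn, and 2 without any 1 of the TAZ UTD replicates. The mitochondrial count was 0 without TAZ CART19 replicate 1 or 3 or TAZ UTD replicate 3, 1 without TAZ UTD replicate 2 and 4 without TAZ UTD replicate 1.

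**Figure D3:**
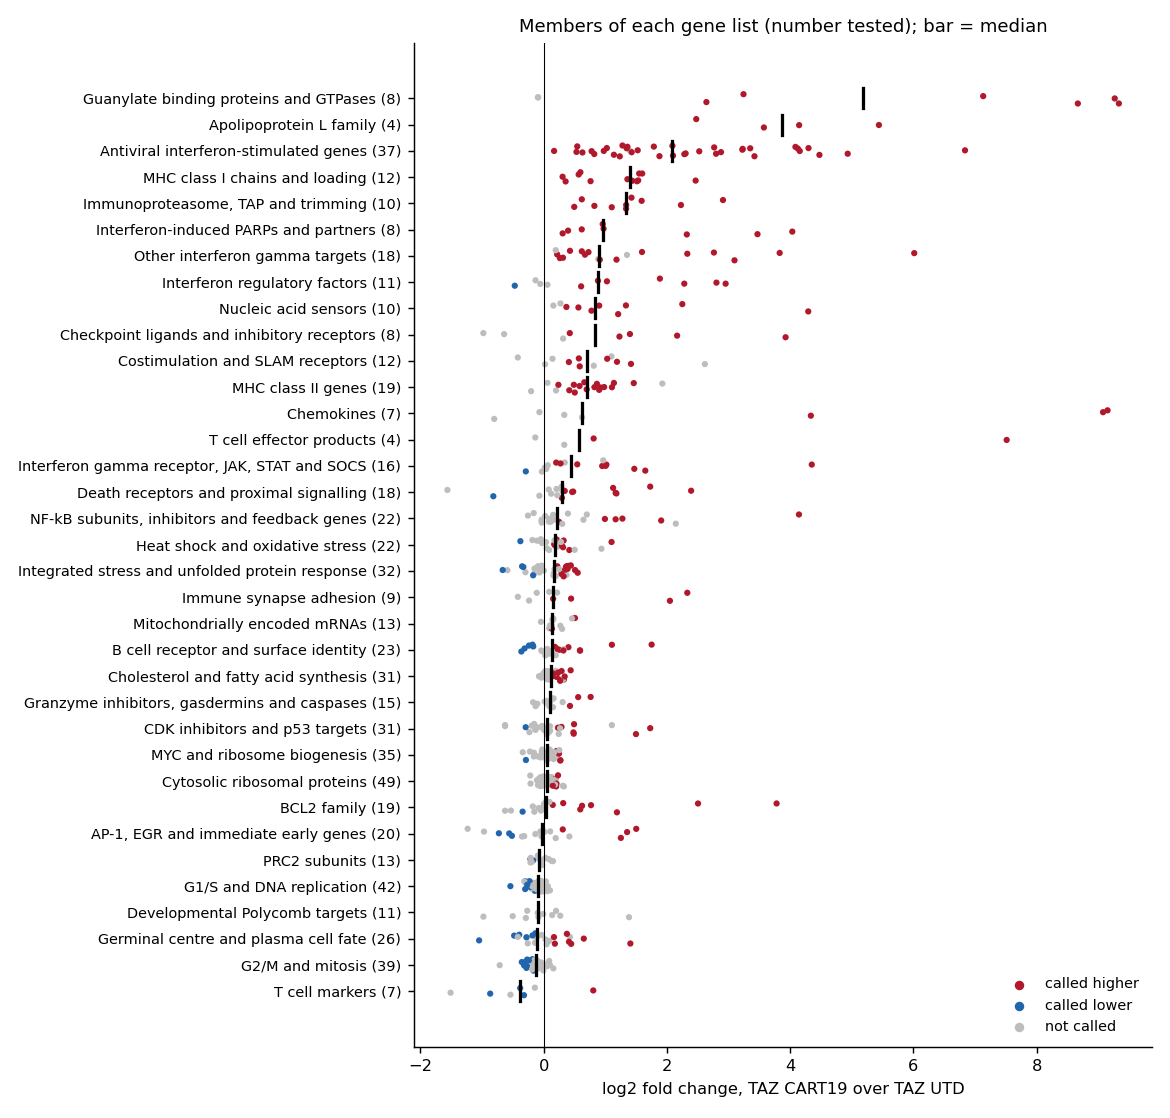
Log2 fold change, TAZ CART19 minus TAZ UTD (horizontal axis), of the tested members of each gene list (rows), with called members coloured by direction and a bar at each list's median. The MHC class I, immunoproteasome, PARP, APOL and antiviral lists lie wholly to the right of 0. The lists of interferon regulatory factors, GTPases and the interferon gamma receptor also have members left of 0, such as IRF2BP1 (-0.469), IRGQ (-0.094) and STAT5B (-0.29). The medians of the cell cycle lists lie at -0.084 and -0.12.

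Both groups had the EZH2 inhibitor, and genes of PRC2 and its targets were compared between them. Of 13 tested PRC2 genes 0 were higher and 2 lower (median -0.075 log2), and of 11 tested developmental Polycomb targets 0 were called in either direction (median -0.086 log2), where 8.33% of all genes were called higher and 5.05% lower. The PRC2 count rested on single libraries: 0 were lower without TAZ CART19 replicate 3 or TAZ UTD replicate 2, and 2 were higher without TAZ CART19 replicate 2. For the 11 targets edgeR gave 0 calls (1 higher and 0 lower at an unadjusted p under 0.05), DESeq2 and limma voom each called 1 higher, and so did edgeR with GC and length trends removed and without TAZ UTD replicate 1 or DMSO UTD replicate 2. The fit of all 24 libraries called 1 lower. The median of this list was -0.24 to 0.004 log2 over the alternatives. EZH2 had 164, 152 and 154 CPM with CART19 and 174, 181 and 174 CPM with UTD cells, -0.17 ± 0.052 log2 (adjusted p = 0.027), a call that was lost without the filter on low counts, with the 6 libraries alone, with the replicate block, and without TAZ CART19 replicate 2 or 3 or TAZ UTD replicate 2 (adjusted p 5.0e-05 to 0.12 over the alternatives). NME4 had 22.5, 23.7 and 17.8 CPM against 19.1, 25.0 and 24.5 CPM, LRP5 had 6.21, 5.53 and 5.30 CPM against 5.25, 7.66 and 8.12 CPM and CD27, a receptor of memory B cells, had 6.91, 7.97 and 7.78 CPM against 8.84, 8.12 and 10.1 CPM. The groups overlapped for NME4 and LRP5 and not for CD27, and none of the 3 was called (-0.10 ± 0.17, -0.30 ± 0.26 and -0.26 ± 0.14 log2, adjusted p = 0.77, 0.5 and 0.24).

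The 29 genes lower by at least 2 log2 all averaged under 5 CPM in the TAZ UTD libraries, 3.35 CPM at most. The decreases described here are among the 10 largest of protein coding genes that reach 5 CPM and do not overlap between groups. CPNE2 (ENSG00000140848, chromosome 16 from 57092537 to 57148367 in hg38), a calcium-dependent phospholipid-binding protein, had 57.9, 57.7 and 51.5 CPM in TAZ CART19 libraries, against 118, 120.1 and 124 CPM in TAZ UTD libraries, -1.12 ± 0.062 log2 (adjusted p = 1.4e-15). ADGRB2, an adhesion G protein-coupled receptor, had 9.07, 7.79 and 7.49 CPM with CART19 and 19.2, 19.1 and 23.8 CPM with UTD cells, -1.35 ± 0.18 log2. ALKAL2, a ligand of the receptor kinases ALK and LTK, had 7.31, 6.57 and 7.37 CPM against 17.4, 16.7 and 16.8 CPM, -1.26 ± 0.18 log2. Each was lower in every CART19 library than in any UTD library. SERINC2 was lower too (-1.45 ± 0.35 log2), the synaptic adhesion protein LRFN2 differed by -1.41 ± 0.26, CFAP73 by -1.21 ± 0.17, PHLDA1 by -1.12 ± 0.21, ITM2C by -1.11 ± 0.19 and SYTL2, an effector of vesicle transport, by -1.10 ± 0.23. Outside the protein coding genes, among those that reach 5 CPM, the largest changes were GVINP1, a GTPase pseudogene, at 3.07 ± 0.18 log2, NCF1B at 2.41 ± 0.14, C5orf56, which lies beside IRF1, at 2.08 ± 0.15, AL035696.3 at -1.72 ± 0.24 and C6orf99 at -1.07 ± 0.15. NCF1B is a near copy of NCF1, so reads may have been shared between them.

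Increases of at least 1 log2 were clustered along the genome in part. Of 249 such genes 57 lay in 14 groups of at least 3 genes with gaps under 250 kb. Among them were 6 of 7 tested genes of the GBP locus on chromosome 1 (hg38, 89006666 to 89426243), 4 of 5 of the IFIT locus on chromosome 10, all 3 OAS genes on chromosome 12, and PARP9, DTX3L and PARP14 on chromosome 3. On chromosome 17 all 6 tested genes between 35464249 and 35537861 were higher, SLFN12L and 5 genes or pseudogenes beside it, among them AC015911.8 with 88 counts in TAZ CART19 libraries and 0 in TAZ UTD libraries (at least 27.9-fold higher). No source used here states whether counting used strand, and overlapping genes of such a cluster may share reads.

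Whether the CART19 effect differed with the drug was tested in the same line, with the effect under tazemetostat set against that under DMSO. Under DMSO, 1033 genes were higher and 782 lower with CART19 cells (6.27% and 4.75%). Calls in the same direction were shared by 632 higher genes, 46.1% of those under tazemetostat and 61.2% of those under DMSO, and by 305 lower genes, 36.7% and 39.0%. Over the 2204 genes called under tazemetostat, 85.1% had the same sign under DMSO. The effects had a Pearson correlation of 0.88 and a Spearman correlation of 0.83 across these genes, which were picked by their effect under tazemetostat. All 16467 genes tested gave 60.2%, 0.55 and 0.30. These values are a description, since genes are not independent. The difference of the effects itself was called for 69 genes (0.419%), 55 with a more positive effect under tazemetostat (0.334%) and 14 with a more negative one (0.085%). At an unadjusted p under 0.05 there were 2293. The counts rested on single libraries. Without TAZ CART19 replicate 2 they were 571 and 411, and without DMSO UTD replicate 1 they were 122 and 32. Without TAZ CART19 replicates 1 and 3 they were 27 and 3, and 34 and 5, without TAZ UTD replicate 2 the lower count was 7, without TAZ UTD replicate 3 they were 28 and 3, and without DMSO CART19 replicates 1 and 3 they were 29 and 3, and 13 and 2. Without DMSO UTD replicates 2 and 3 they were 20 and 3, and 22 and 6. With upper quartile factors 43 and 22 were called, 66.2% more positive in place of 79.7%. With GC and length trends removed 56 and 12 were called, but only 32 of the 69 genes (46.38%) were among them.

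Of the 55 genes, 38 were higher with CART19 under tazemetostat, and 19 of these were not called under DMSO, 12 were higher there too and 7 were lower there. APOL6, an interferon-induced apolipoprotein L, had 139.6, 126 and 135 CPM in TAZ CART19 libraries and 2.53, 3.21 and 3.41 CPM in TAZ UTD libraries, against 165, 168 and 168 CPM in DMSO CART19 libraries and 8.68, 10.6 and 8.30 CPM in DMSO UTD libraries. The effect was 5.44 ± 0.10 log2 under tazemetostat and 4.18 ± 0.087 under DMSO, a difference of 1.26 ± 0.15 (adjusted p = 2.0e-05). With the drug, APOL6 was lower than under DMSO in both kinds of culture, and by more in those with UTD cells. OAS2 had 104, 99.4 and 103 CPM in DMSO CART19 libraries and 30.4, 28.1 and 24 CPM in DMSO UTD libraries, and its effect was larger under tazemetostat by 0.63 ± 0.11 log2 (adjusted p = 0.0059). MS4A1, at 589, 620.3 and 587 CPM in DMSO CART19 libraries and 503, 539 and 524 CPM in DMSO UTD libraries, had an effect of 0.20 ± 0.047 log2 under DMSO, 0.39 ± 0.067 less than under tazemetostat (adjusted p = 0.0037). STAT5A, a transducer of cytokine signals, went the other way, with 142, 132 and 133 CPM in TAZ CART19 libraries and 70.4, 66.8 and 65.3 CPM in TAZ UTD libraries, against 67.5, 75.2 and 71.0 CPM in DMSO CART19 libraries and 21.6, 24.7 and 23.6 CPM in DMSO UTD libraries. Its effect was smaller under tazemetostat, a difference of -0.61 ± 0.10 log2 (adjusted p = 0.0021), and its UTD level was higher with the drug. The calls of APOL6, OAS2, MS4A1 and STAT5A held in every alternative run, although the difference of MS4A1 was 0.22 with GC and length trends removed.

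**Figure D4:**
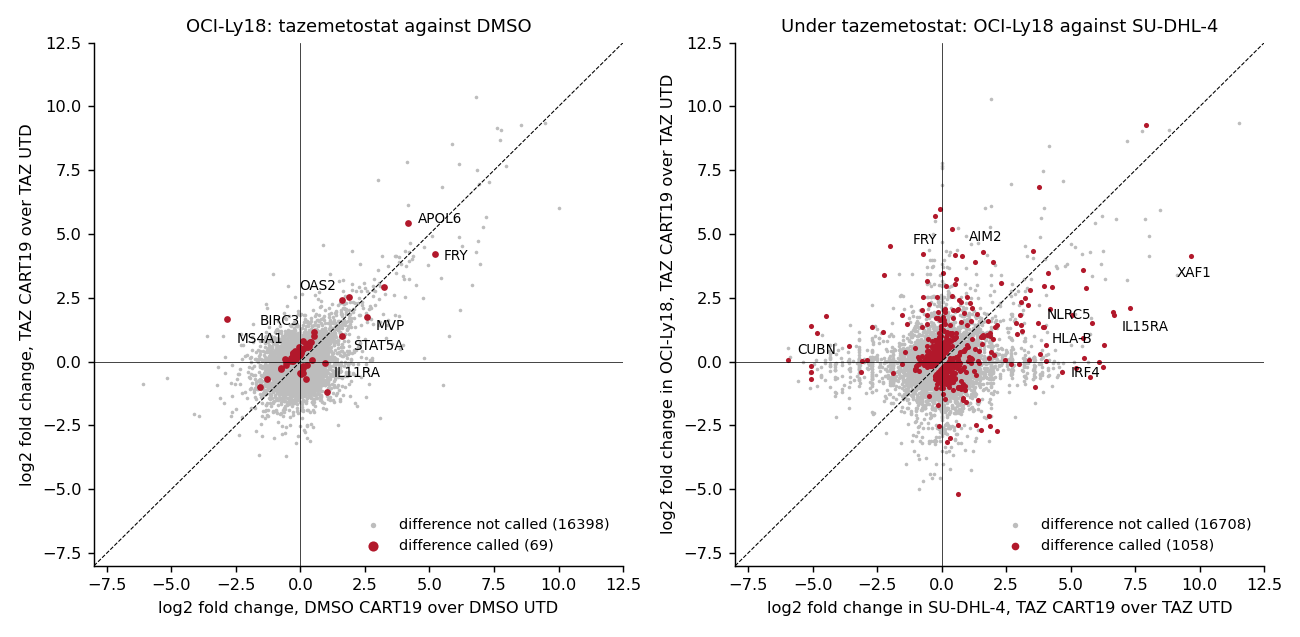
Log2 fold change with CART19 under tazemetostat in OCI-Ly18 (vertical axes) against the same contrast under DMSO in OCI-Ly18 and under tazemetostat in SU-DHL-4 (horizontal axes), each point a gene, with genes whose 2 effects differ past the threshold coloured. The effects of 69 genes differ in the DMSO panel and those of 1058 genes in the SU-DHL-4 panel.

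In SU-DHL-4 under tazemetostat, 818 genes were higher and 1130 lower with CART19 cells (4.6% and 6.36% of 17766 tested in the joint fit of 24 libraries). The effect differed between the lines for 1058 genes (5.96%), 815 more positive in OCI-Ly18 (4.59%) and 243 more negative (1.37%). With upper quartile factors 527 and 338 were called, 60.9% more positive in place of 77.0%, and without TAZ CART19 replicate 2 of OCI-Ly18 the more negative ones numbered 398. With GC and length trends removed 971 and 326 were called. Over the 2240 genes called in OCI-Ly18 in the joint fit, 71.8% had the same sign in SU-DHL-4. The Pearson correlation across these genes was 0.62 and the Spearman correlation 0.59. All 17766 genes tested gave 54.67%, 0.26 and 0.18.

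Of the 12 class I genes all were higher in OCI-Ly18 and 9 in SU-DHL-4, and the effect was smaller in OCI-Ly18 for 5 and larger for 2. HLA-B had 518, 511 and 527 CPM in SU-DHL-4 TAZ CART19 libraries and 35.9, 29.7 and 33.6 CPM in SU-DHL-4 TAZ UTD libraries, an effect of 3.97 ± 0.066 log2, and the effect in OCI-Ly18 minus this was -2.62 ± 0.084 log2 (adjusted p = 1.1e-26). NLRC5 had 256, 273 and 279 CPM against 20.4, 18.8 and 22.2 CPM in SU-DHL-4, and its effect in OCI-Ly18 was smaller, a difference of -2.21 ± 0.088 log2 (adjusted p = 2.5e-23). For both genes the SU-DHL-4 cells with UTD cells had lower values than the OCI-Ly18 cells with UTD cells. AIM2 differed by 2.67 ± 0.14 log2 (adjusted p = 8.4e-19), with the larger effect in OCI-Ly18.

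Of 24 B cell surface genes in the joint fit the effect was more positive in OCI-Ly18 for 11 and more negative for 2. MS4A1 had 2205, 1869 and 2006 CPM in SU-DHL-4 TAZ CART19 libraries, against 2048, 2047 and 2102 CPM in SU-DHL-4 TAZ UTD libraries, -0.028 ± 0.047 log2, and the lines differed by 0.62 ± 0.066 (adjusted p = 3.9e-09). MS4A1 was not called in SU-DHL-4. Of 31 genes of cholesterol and fatty acid synthesis 12 were higher and 0 lower in OCI-Ly18 in this fit and 2 higher and 8 lower in SU-DHL-4, and 8 differed, all more positive in OCI-Ly18. Ribosomal protein genes were higher for 24 of 49 in SU-DHL-4 and for 5 in OCI-Ly18, with a difference called for 3. Counts in the SU-DHL-4 TAZ CART19 libraries lay on shorter genes. Mean log2 gene length weighted by counts was 12.0937, 12.0911 and 12.0945 there, against 12.1397, 12.139 and 12.1401 in the SU-DHL-4 TAZ UTD libraries. The 2 OCI-Ly18 groups overlapped in it. Whether this shift has a part in the ribosomal counts was not tested. FRY had 0.728, 0.984 and 0.615 CPM in SU-DHL-4 TAZ CART19 libraries and 1.42, 1.37 and 1.04 CPM in SU-DHL-4 TAZ UTD libraries, which is low in both, and its effects differed by 4.92 ± 0.35 log2 (adjusted p = 2.8e-14). IRF4, lower with CART19 in OCI-Ly18, had 0.312, 1.44 and 0.410 CPM against 0, 0 and 0.0612 CPM in SU-DHL-4, 34 counts against 1. The lines differed (adjusted p = 1.2e-05), with a fitted difference of -5.06 ± 0.77 log2 that depends on the prior count.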

How the data were processed

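RNA was measured in 24 libraries of 2 lymphoma lines, 3 for each of 8 groups of drug and co-cultured cells, by sequencing of total RNA with an NEBNext Ultra II RNA library kit, per the labels' protocols. The authors deposited raw read counts per gene, and these counts were used as deposited. The submitters' processing notes name the build hg38 and DESeq2, whose role they do not give. The aligner, the counter and its use of strand are not stated in the sources used here. All 58735 gene IDs and their positions match GENCODE 29, 27 symbols that a spreadsheet had made into dates were put back, and 0 rows named no gene.

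Library totals were 14.8 to 20.1 M counts. Counts of replicates differed by more than sampling noise in all 24 replicate pairs (chi-square over degrees of freedom 2.77 to 14.8), so every library counts once. Tests used edgeR 4.0.16 (R 4.3.3): TMM scaling (factors 0.974 to 1.04), filterByExpr, robust quasi-likelihood F-tests on group means over the 12 OCI-Ly18 libraries (8 residual degrees of freedom, biological coefficient of variation 8.548%), with Benjamini-Hochberg adjustment over all genes tested. A gene is called when its adjusted p is under 0.05. The lines were compared in a joint fit of 24 libraries. Differences are TAZ CART19 minus TAZ UTD, in log2 with the standard error (SE), and CPM use the TMM-scaled totals. Intervals and the floor of 3 counts over a group cover counting error only.

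On simulated counts with 200 changed genes the main comparison called 55.2%, 61.2% and 84.8% of 1.5-fold, 2-fold and 4-fold changes among 16467 genes, and 4.29% of its 140 calls were false. Alternatives were RLE and upper quartile factors, no filter and a stricter filter (1 CPM or more in each of the 3 libraries of some group, and 20 counts on average), DESeq2 1.42.0, limma voom 3.58.1, other sets of libraries, each library left out in turn, a replicate block, and a change of at least 1 log2. Removing GC and length trends (splines with 4 degrees of freedom, 99.964% of tested genes) was added after seeing the data. Tables and plots were made with Python 3.11.15, pandas 2.3.3 and matplotlib 3.10.9.

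The samples were chosen by label, and the 37 gene lists and the rule for naming genes were chosen with earlier results of these data known. The rule takes, among called protein coding genes that reach 5 CPM in the group where they are higher and do not overlap between groups, the 12 largest increases and 10 largest decreases. It adds up to 5 called members of each list by size of change, the 5 largest differences of each sign between drugs and between lines, 3 other transcripts of each sign, 6 genes with no counts in TAZ UTD libraries, and anchor genes. Some of the genes it takes are given only in counts or in the closing section, and some are not reported here.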

Additional observations from a re-analysis of the deposited data

Results flagged for a closer look

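The CART19 effect differed between tazemetostat and DMSO in OCI-Ly18, by a test of the difference itself, for 55 genes with a more positive effect under tazemetostat and 14 with a more negative one. Among protein coding genes with at least 5 CPM, the 5 largest positive differences were those of APOL6 (1.26 log2), USP53 (0.695), BIRC3, an inhibitor of apoptosis (0.65), TAGAP (0.634) and OAS2 (0.63). The 5 largest negative ones were those of FRY (-1.02), IL11RA (-0.971), ANO9 (-0.932), MVP (-0.836) and STAT5A (-0.607). APOL6, OAS2 and STAT5A were called in every alternative run. The call of FRY was lost with limma voom (adjusted p = 0.12) and that of TAGAP without DMSO CART19 replicate 3 or DMSO UTD replicate 3 (adjusted p up to 0.063). The difference of BIRC3 was 0.43 with GC and length trends removed and was not called there or without DMSO CART19 replicate 3 (adjusted p up to 0.11). Calls of USP53, IL11RA, ANO9 and MVP were lost in 10, 11, 11 and 12 alternatives.

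The effect under tazemetostat differed between OCI-Ly18 and SU-DHL-4, again by a test of the difference, for 815 genes with a more positive effect in OCI-Ly18 and 243 with a more negative one. The 5 largest positive differences of protein coding genes with at least 5 CPM were those of IPCEF1 (6.05 log2), CUBN (6.01), ESPNL (5.96), HEMGN (5.65) and FRY (4.92). The 5 largest negative ones were those of ARHGAP22 (-5.82), XAF1 (-5.51), IRF4 (-5.06), IL15RA (-4.85) and TP63 (-4.69). All but FRY and IRF4 have a group with 0 counts in 1 of the lines, and IRF4 has 1 count in SU-DHL-4 TAZ UTD libraries, so these fitted values depend on the prior count and are no bounds. IPCEF1, for example, had 26 counts in OCI-Ly18 TAZ CART19 libraries and 0 in OCI-Ly18 TAZ UTD libraries, against 989 and 1035 counts in the matching SU-DHL-4 groups. XAF1, a proapoptotic interferon-stimulated gene, had 662 counts in OCI-Ly18 TAZ CART19 libraries and 35 in OCI-Ly18 TAZ UTD libraries, against 295 and 0 in SU-DHL-4. The calls of ARHGAP22, HEMGN and TP63 were lost in 2, 8 and 6 alternatives.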

How the results depend on the processing

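For the effect under tazemetostat, leaving out 1 library gave 1031 to 1725 genes higher and 589 to 1142 lower, and a minimum change of 1 log2 gave 249 and 109. The share of its calls that were also made was 96.64% with DESeq2, 84.39% with GC and length trends removed, 72.41% with the 6 libraries alone and 69.65% to 97.46% with 1 library left out. The difference between drugs depended on the processing: 166 genes higher and 72 lower with DESeq2, 96 and 30 with all 24 libraries, 183 and 123 without a filter, 43 and 22 with upper quartile factors, and 13 to 571 and 2 to 411 with 1 library left out. With GC and length trends removed 56 and 12 genes were called between drugs, and 32 of the 69 main calls (46.38%) were kept. The difference between lines was 527 and 338 with upper quartile factors, and 617 to 1113 and 181 to 398 with 1 library left out. It was 971 and 326 with GC and length trends removed, where 90.08% of the main calls were kept. The cause was not tested. Same-numbered TAZ CART19 and TAZ UTD libraries correlated at 0.195, -0.157 and -0.174, in deviations from the group mean. TAZ UTD replicate 3 and TAZ CART19 replicate 2 correlated at 0.413. The labels do not say whether the numbers pair cultures, and so few correlations cannot decide it. With the replicate block the counts were 1228 and 726 for the effect under tazemetostat, 22 and 3 between drugs and 703 and 215 between lines. Of 178 called named genes 142 were called in every alternative and 36 were lost in at least 1. CDKN1A, not called at 0.008 log2, was -0.002 with limma voom, -2e-05 with the stricter filter, -0.033 with upper quartile factors and -0.086 to 0.082 with 1 library left out. NME4, not called at -0.10 log2, was -0.22 to 0.012 with 1 library left out. Fitted differences of genes with 2 or 3 counts in TAZ UTD libraries moved by over 1.5 times without 1 UTD library: CCL22 to 7.0 and TNF to 7.32 without replicate 1, and ETV7 to 9.17 without replicate 2. With 3 libraries a group, 1.5-fold changes were often missed in simulation, so a gene that was not called may still differ.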

Other observations

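Of the genes called higher under tazemetostat, 12 had no counts in any TAZ UTD library, and those not described so far include GBP1P1, a pseudogene of the GBP locus, with 147 counts in TAZ CART19 libraries, DCC, the netrin receptor, with 84, and GBP5, another guanylate binding protein, with 56. These are at least 46.5-fold, 26.6-fold and 17.7-fold higher when 3 counts are set for the UTD group. For 13 of the 55 genes with a more positive effect under tazemetostat the effect was not called with the drug and was lower with CART19 under DMSO.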
